A study of Homo sapiens with 6 samples.

Results

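The genes described here are the 4 ID genes, *ID1*, *ID2*, *ID3* and *ID4*, and the 2 inhibitory SMAD genes, *SMAD6* and *SMAD7*, which are 6 of the 62700 genes measured. They were taken by gene symbol, and the group was chosen because *ID2* had been called lower in these same libraries, with the question of whether *ID2* stood alone or moved with its family. Since that contrast selected the group, the values of the members are given as a description and carry no p. Calls of members are also only a description, and nothing is read from a difference in calls between *ID2* and the others. RNA–Seq covered 6 libraries of SK–Hep1, a human liver tumour line that the study calls endothelial-derived. There were 3 control libraries, titled shControl although their genotype label reads WT, and 3 libraries titled shRAB30-DT, in which a short hairpin RNA targets *RAB30-DT*, a long non-coding RNA. The methods describe stable lines made with lentiviral pLKO.1 vectors and puromycin, and no source states whether the 3 libraries of a group came from separate cultures or which of the study's hairpins was used, so any p below measures the spread between these libraries, which may be technical.

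ID proteins are helix-loop-helix proteins without a DNA-binding region. They bind E proteins such as TCF3 and TCF12 and keep them and their tissue-specific bHLH partners from DNA, and they are known for holding cells in a proliferating, undifferentiated state. BMP ligands are the classical inducers of *ID1*, *ID2* and *ID3*: they bind pairs of type I and type II receptors, which phosphorylate SMAD1, SMAD5 and SMAD9, and these enter the nucleus with SMAD4. *SMAD6* and *SMAD7* are induced by the same signals and block them, SMAD6 mainly for BMP and SMAD7 for both BMP and TGF-β. In liver, ID genes and *SMAD7* are well-known responders to BMP signals, which there control the iron hormone hepcidin.

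The DNA ahead of the members was searched because BMP-responsive elements of ID genes pair a GC-rich SMAD1/5 element with a SMAD4 element. In the 5000 bases before the start of each canonical transcript (GENCODE on hg38), GGCGCC, which reads the same on both strands, was sought with a GTCT or AGAC lying wholly inside the 20 bases on either side. Such a pair occurred ahead of *ID2*, *ID3*, *SMAD6* and *SMAD7*, and ahead of 13.7% of 20043 genes. The stricter arrangement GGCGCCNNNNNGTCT, on either strand, was present ahead of *ID2* and *ID3* alone among the members, and ahead of 0.52% of the same 20043 genes. The sites are printed to show how nearly the elements of *ID2* and *ID3* match, with both motifs in capitals and each read on the strand of its gene. Positions count the first base of GGCGCC from the canonical start.
ID2, position -3114, chr2:8678937-8678961, plus strand: cgcctGGCGCCagagaGTCTgctcc
ID2, position -408, chr2:8681643-8681666, plus strand: atttaGGCGCCcaggGTCTgcccc
ID3, position -2962, chr1:23562444-23562468, minus strand: accctGGCGCCaggctGTCTggggc
SMAD6, position -1257, chr15:66700961-66700989, plus strand: cagggAGACccgcccgccGGCGCCccgcg
SMAD7, position -781, chr18:48951736-48951765, minus strand: ggagaGTCTcggaggaggaGGCGCCgagag
*SMAD7* had a further pair at position −929. *ID1* and *ID4* each had 2 copies of GGCGCC without such a neighbour, and 60.8% of all genes had at least 1 copy. Both *ID2* sites lie inside the annotated *ID2* gene, which starts at 8678845 through a longer alternative transcript, but before its canonical start at 8682056. These matches describe sequence and no binding was measured, so nothing follows from them about SMAD proteins in these cells.

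**Figure D1:**
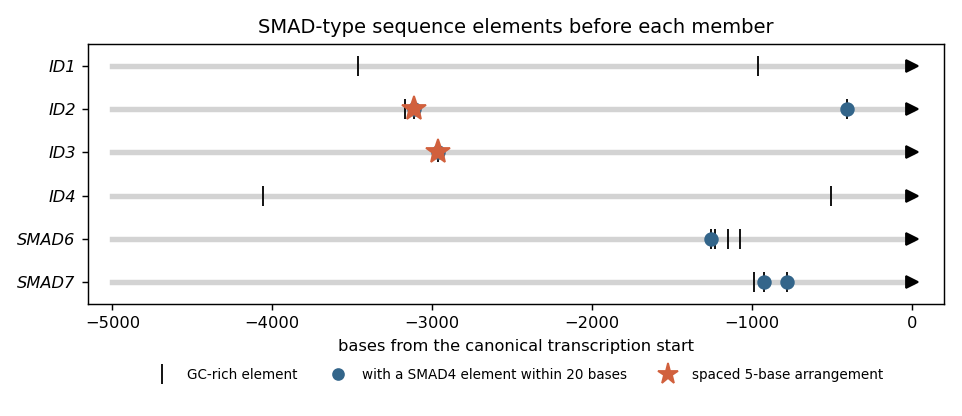
Position of the GC-rich element (black ticks), of copies with a SMAD4 element within 20 bases (circles) and of the arrangement with a spacer of 5 bases (stars) in the 5000 bases before the canonical start of each member. Stars appear for *ID2* and *ID3* at the similar positions −3114 and −2962, whereas the pairs of *SMAD6* and *SMAD7* lie at −1257 or nearer to the start.

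A second sequence feature was looked up because it had been found in a scan of these same data, in which genes that were lower in knockdown cells often held the heptamer GAGTGAA in the 3′UTR. It is therefore no independent support. Of the members, *ID2* held the heptamer once, at base 473 of a 3′UTR of 784 bases, and *ID4* once, at base 1662 of 3002. Neither *ID1*, *ID3*, *SMAD6* nor *SMAD7* held it. The sites are shown with the heptamer in capitals.
ID2: tatatctatttGAGTGAAaccttgtgaac
ID4: tggaatttttaGAGTGAAagaattaagta
Among tested genes with a 3′UTR, 12.5% of 11539 held the heptamer, and among those called lower 42 of 86 did (48.8%). The 3 other members whose libraries did not overlap lacked it.

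The level of the targeted transcript overlapped between the groups. *RAB30-DT* measured 18.16, 11.51 and 13.91 TPM in controls 1, 2 and 3, against 11.94, 10.85 and 6.5 TPM in knockdown libraries 1, 2 and 3, with knockdown replicate 1 above control replicate 2. TPM are relative transcript numbers, scaled for length so that every library has the same sum. A control or knockdown library is named here by its replicate number. The log2 fold change of knockdown over control, computed on log2(TPM + 1) as everywhere below, was −0.55 ± 0.27 (SE), with an adjusted p of 0.355 from limma. An exact two-sided permutation test gave p = 0.2, and the smallest p that 3 against 3 libraries allow is 0.1. Libraries are called knockdown here by their labels. The study also reports a qPCR check of the knockdown in this cell line, and does not state whether it used the cells sequenced here.

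Across the series, between 20127 and 21675 genes were above 0 TPM per library, and the read depth is unknown. Of 14020 tested genes, 1374 differed at least 2-fold on the log2(TPM + 1) scale between control replicate 3 and the mean of the other controls, 1217 for control replicate 1 and 510 for control replicate 2, against 357 to 423 for each knockdown library and the mean of the other 2. For the labelled cell type, all 10 endothelial markers had a mean under 1 TPM, with summed levels of 0.72 to 3.62 TPM in control and 1.15 to 2.45 TPM in knockdown libraries, and *KDR* and *ERG* were listed at 0 throughout. The hepatocyte genes *ALB*, *APOB*, *TTR* and *HNF4A* and the immune genes *PTPRC* and *CD3E* were listed at 0 in all libraries. Of these lists only *SERPINA1* (hepatocyte) and *CD68* (immune) reached a mean of 1 TPM, and summed levels ranged from 18.2 to 24.3 against 28.3 to 37.2 TPM for hepatocyte genes, and from 28.6 to 66.9 against 107 to 129 TPM for immune genes. Of 8 mesenchymal genes 6 were tested and none was called. *VIM* was abundant, with 3793.03 to 3997.41 TPM in control and 4335.79 to 4784.16 TPM in knockdown libraries. It was higher in every knockdown library (log2 fold change 0.25). *THY1* was lower in every knockdown library (−0.54) and was the 1 tested gene of this list with a negative value. *CDH2*, *COL1A1*, *FN1* and *S100A4* had 0.07, 0.19, 0.30 and 0.05, with overlapping groups, and *COL1A2* and *COL3A1* were under 1 TPM. The epithelial list summed to between 2615 and 3927 TPM in control and between 1920 and 2268 TPM in knockdown libraries, nearly all from keratins, of which *KRT8* and *KRT18* were called lower and *KRT19* was higher in every knockdown library without passing (0.84, adjusted p = 0.0868 from limma), while *EPCAM* was near 0 and *CDH1* at 0. Their part in the results below was not tested. In bulk RNA, fewer cells with a transcript and less of it per cell cannot be told apart.

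Of the 6 members, 4 were expressed well above the filter of a mean of 1 TPM, and in each of these every knockdown library lay under every control. These were *ID1*, *ID2*, *ID3* and *SMAD7*. The same complete separation toward lower values was found for 13.4% of the 14020 genes tested, and separation toward higher values for 9.89%. At an adjusted p under 0.05 in limma, 1 of the 4 was called, *ID2*, where 1.04% of tested genes were called in either direction, 0.670% lower and 0.371% higher. *ID4* and *SMAD6* did not pass the filter. Because the group was selected on this contrast, nothing is read from these shares.

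*ID2* (ENSG00000115738.10), on the plus strand of chromosome 2 from 8678845 to 8684461 of hg38, was the member that selected the group. It measured 49.29, 54.14 and 101.47 TPM in controls 1, 2 and 3, against 17.82, 23.79 and 17.93 TPM in knockdown libraries 1, 2 and 3. The lowest control library was above the highest knockdown library by more than the whole knockdown range. The means were 68.3 ± 28.8 TPM (SD, n = 3) and 19.8 ± 3.42 TPM (SD, n = 3), a ratio of 3.44, and the log2 fold change was −1.67 ± 0.29 (SE; 95% interval −2.33 to −1.01). The antisense transcript *ID2-AS1* overlaps it on the opposite strand at 0.69, 0.49 and 1.33 TPM in control and 1.9, 1.45 and 1.49 TPM in knockdown libraries. Whether the counting used strand is not stated, so reads of the pair cannot be told apart, although the antisense level was far below that of *ID2* in each library.

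*ID1* (ENSG00000125968.9), on the plus strand of chromosome 20 from 31605283 to 31606515, is the ID gene with the most direct known response to BMP. This gene measured 33.3, 41.14 and 208.46 TPM in controls 1, 2 and 3, against 17.17, 15.97 and 20.49 TPM in knockdown libraries 1, 2 and 3. One control library was thus far above the others, while the knockdown libraries were close together. The means of 94.3 ± 98.9 and 17.9 ± 2.34 TPM (SD, n = 3 each) gave the lowest log2 fold change of the family, −1.84, with the widest interval (SE 0.60; −3.22 to −0.45).

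*ID3* (ENSG00000117318.9), on the minus strand of chromosome 1 from 23557926 to 23559501, was less abundant. It measured 12.6, 16.59 and 37.99 TPM in controls 1, 2 and 3, against 7.79, 8.62 and 8.82 TPM in knockdown libraries 1, 2 and 3. The groups did not overlap, and control replicate 3 was again the highest library. Means of 22.4 ± 13.7 and 8.41 ± 0.546 TPM (SD, n = 3 each) corresponded to a log2 fold change of −1.16 ± 0.36 (SE; −2.00 to −0.33). The gene was not called.

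*ID4* (ENSG00000172201.12), on chromosome 6, was listed at 0 TPM in 5 libraries and at 0.02 TPM in knockdown replicate 2. It was not tested, and no fold is given. This member, which in some tissues opposes the other ID proteins, was not detectable at the unknown depth of these libraries.

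*SMAD7* (ENSG00000101665.10), on the minus strand of chromosome 18 from 48919853 to 48950965, was the inhibitory SMAD with a measurable level. It measured 8.75, 9.4 and 18.17 TPM in controls 1, 2 and 3, against 5.71, 4.09 and 4.4 TPM in knockdown libraries 1, 2 and 3. Every knockdown library was lower, and control replicate 3 was about double the other controls. The means were 12.1 ± 5.26 and 4.73 ± 0.860 TPM (SD, n = 3 each), with a log2 fold change of −1.13 ± 0.30 (SE; −1.81 to −0.45), which was not called.

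*SMAD6* (ENSG00000137834.15), on the plus strand of chromosome 15 from 66702236 to 66782849, was low in all libraries. Its libraries held 1.05, 1.45 and 0.64 TPM in controls 1, 2 and 3, against 0.6, 0.5 and 0.69 TPM in knockdown libraries 1, 2 and 3. The groups overlapped, since control replicate 3 was below knockdown replicate 3. This was the reverse of its position in the other expressed members, where control replicate 3 was the highest of all. With a mean of 0.822 TPM it was under the filter, and without a filter its log2 difference was −0.34 ± 0.20 (SE; −0.83 to 0.14).

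**Figure D2:**
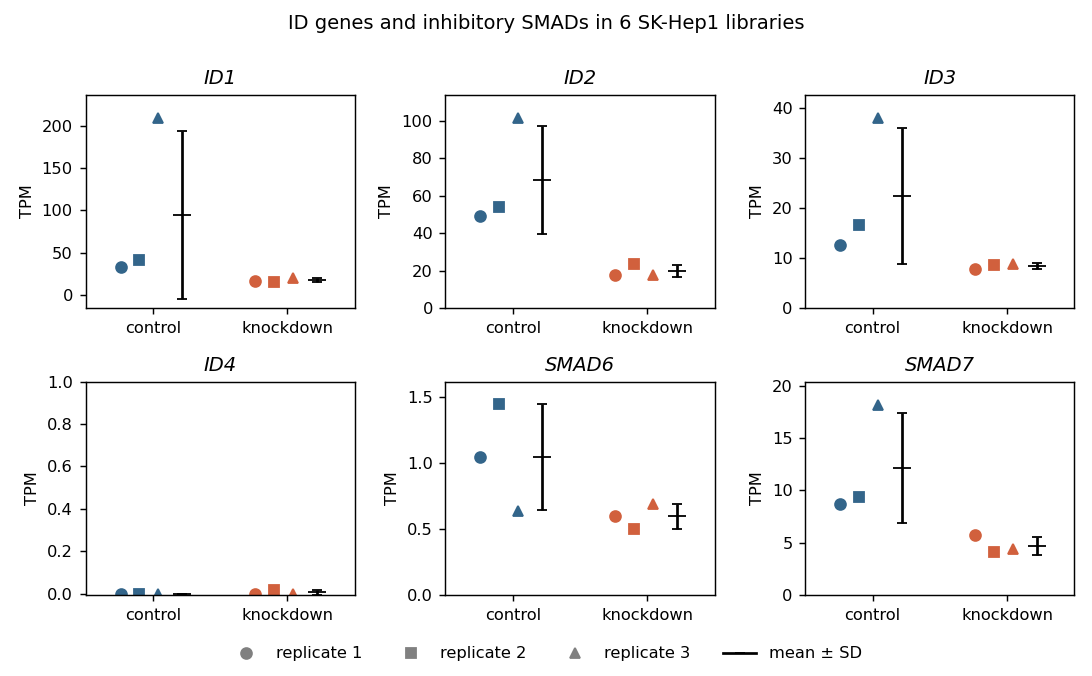
TPM of each member in the 3 control (blue) and 3 knockdown (orange) libraries, with a symbol for each replicate number and the mean ± SD (n = 3) in black; axes are linear and differ between panels. In *ID1*, *ID2*, *ID3* and *SMAD7* all orange points lie below all blue points and the blue triangle, control replicate 3, is the highest, at 208.46, 101.47, 37.99 and 18.17 TPM, while in *SMAD6* it is the lowest blue point at 0.64 TPM.

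The size of these differences depended on control replicate 3, and their direction did not. Its level over the mean of control replicates 1 and 2 was 5.60-fold for *ID1*, 1.96-fold for *ID2*, 2.60-fold for *ID3* and 2.00-fold for *SMAD7*. On the log2 scale, 0.514% of tested genes exceeded those libraries by at least as much as *ID1* did, and 3.36%, 1.63% and 3.59% by as much as *ID2*, *ID3* and *SMAD7*. Without control replicate 3, the log2 fold changes were −1.02 for *ID1*, −1.35 for *ID2*, −0.72 for *ID3* and −0.82 for *SMAD7*. In TPM, control replicates 1 and 2 together were then 2.08-fold, 2.61-fold, 1.74-fold and 1.92-fold above the knockdown mean, where all 3 controls were 5.28-fold, 3.44-fold, 2.66-fold and 2.56-fold above it. So *ID2* had the lowest log2 fold change of the 4 without this library, and *ID1* with it. *ID2* was still called without it, and the other members were not, but *ID2* selected the group, so nothing is read from this.

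Some other pathway genes, chosen after their values were seen, were also high in control replicate 3. *HES1*, a Notch and BMP target, measured 2.04, 1.47 and 71.16 TPM in controls 1, 2 and 3, against 1.05 to 1.68 TPM in knockdown libraries. *JUNB*, an immediate-early gene and TGF-β target, measured 12.75, 23.37 and 102.86 TPM in controls 1, 2 and 3, against 10.45 to 17.47 TPM. *PPP1R15A*, a stress-induced phosphatase subunit that SMAD7 recruits to the type I receptor, measured 35.8, 54.18 and 193.78 TPM against 60.88 to 87.35 TPM. Unlike the members, *PPP1R15A* was higher in all knockdown libraries than in control replicates 1 and 2. *NOG*, a secreted BMP antagonist, was at 1.09, 1.36 and 6.47 TPM against 1.11 to 2.1 TPM. Other pathway genes, also chosen with their values in view, were lowest of all libraries in control replicate 3. Examples are *TGFBR2* at 9.59 TPM, *ACVR1* at 8.63 TPM and *SNAI2* at 9.68 TPM. Over all tested genes, 492 were at least 2-fold above the mean of the other controls in control replicate 3, and 882 were at least 2-fold below it.

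**Figure D3:**
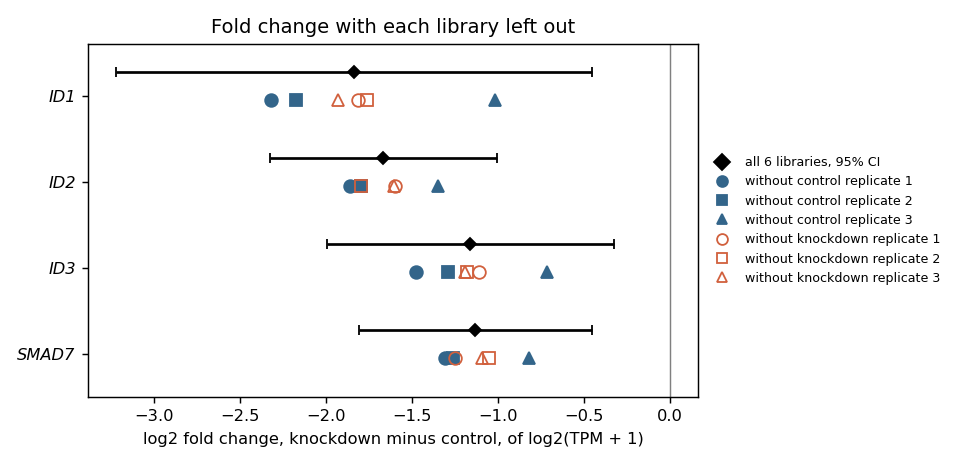
Log2 fold change of the 4 tested members with all 6 libraries (black, with 95% interval) and with each library left out (blue for a control, orange outline for a knockdown library). All points lie below 0, and leaving out control replicate 3 moves each gene nearest to 0, to −1.02, −1.35, −0.72 and −0.82 for *ID1*, *ID2*, *ID3* and *SMAD7*.

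The call of *ID2* changed with the libraries and settings used, while its direction did not. It was called without control replicate 1 or control replicate 3, and was no longer called without control replicate 2 or without knockdown replicate 1, 2 or 3. Its log2 fold change stayed between −1.86 and −1.35 in these fits. Calls over all tested genes fell as well, from 146 to 12 without control replicate 2 and to 18, 15 and 16 without knockdown replicates 1, 2 and 3. *ID2* was also no longer called with median-of-ratios scaling (−1.65), with quantile normalization (−1.57), without a mean-variance trend or without a filter. Calls over all genes were then 129, 161, 103 and 13. In the fits with 12 to 18 calls, the loss was thus not particular to *ID2*. With median-of-ratios scaling and quantile normalization there was no such general loss, and the pathway genes *THBS1* and *CDKN1A*, described below, stayed called. *ID3* was called as well without control replicate 1 (−1.48).

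Summed over the family, ID transcripts measured 95.19, 111.87 and 347.92 TPM in controls 1, 2 and 3, against 42.78, 48.4 and 47.24 TPM in knockdown libraries 1, 2 and 3. The means were 185 ± 141 and 46.1 ± 2.97 TPM (SD, n = 3 each), so the knockdown libraries varied far less. *ID2* made up 51.8% and 48.4% of this sum in control replicates 1 and 2 and *ID1* made up 35.0% and 36.8%, whereas in control replicate 3 *ID1* made up 59.9% and *ID2* 29.2%. In knockdown libraries *ID1* made up 33.0% to 43.4%, *ID2* 38.0% to 49.2% and *ID3* 17.8% to 18.7%. *ID3* made up less in each control library, between 10.9% and 14.8%. Thus *ID1* and *ID2* had no fixed order: *ID2* was above *ID1* in control replicates 1 and 2 and knockdown replicates 1 and 2, and below it in the replicates numbered 3. *ID3* was below both in every library, and *SMAD7* was below *ID3* in every library.

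Among all 14020 tested genes ordered from the lowest log2 fold change, *ID1* was number 40, *ID2* number 64, *ID3* number 212 and *SMAD7* number 229. The median log2 fold change of all tested genes was −0.04 and 53.7% were negative. Over the 6 libraries, the pattern of the members in log2(TPM + 1) was similar, with a Pearson correlation with *ID2* of 0.913 for *ID1*, 0.946 for *ID3* and 0.946 for *SMAD7*. These rank 489, 261 and 265 among 14019 genes, so many other genes followed *ID2* more closely. The 5 most like it were *CDC45* (0.997), a subunit of the replicative helicase, *TOE1* (0.997), a 3′ exonuclease of small RNAs, *LIG1* (0.996), the replicative DNA ligase, *SSRP1* (0.995), a histone chaperone subunit, and *UBAC1* (0.994), a ubiquitin ligase subunit. *CDC45*, for example, measured 56.75, 55.12 and 85.43 TPM in controls 1, 2 and 3, against 26.06, 30.78 and 26.14 TPM in knockdown libraries 1, 2 and 3. All points share the same 6 libraries and the difference between groups enters each correlation, so these are descriptions with no p.

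Few genes of the rest of the BMP and TGF-β pathway and of the ID partners passed the test. Of 156 listed genes outside the family, 155 were matched, 89 were tested, 1 was called lower and 1 higher, against 1.04% of all tested genes called. Their median log2 fold change was −0.07, with 50 of 89 negative. In 10 of them the knockdown libraries were all below the controls and in 5 all above, where 13.4% and 9.89% of all tested genes were. The lists were chosen with earlier results of these data known, and the adjusted p below are from limma over all 14020 genes.

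The BMP ligands were low. Of 21 BMP and GDF ligand genes, 6 were tested, 5 with negative log2 fold changes, and none passed the test. *BMP4* measured 10.35, 9.14 and 7.79 TPM in control and 8.81, 5.63 and 6.91 TPM in knockdown libraries 1, 2 and 3, and the groups overlapped (adjusted p = 0.512). *BMP6*, the main hepatic iron-regulating ligand, was at 2.73, 2.31 and 3.13 TPM in control and 1.52, 1.27 and 1.12 TPM in knockdown libraries 1, 2 and 3. Its libraries did not overlap, but its log2 fold change of −0.69 did not pass (adjusted p = 0.226). *BMP2* was at most 0.05 TPM. These 3 ligands were chosen after their values were seen. The most abundant genes of the list, *AMH* and *GDF11*, had log2 fold changes of −0.32 (adjusted p = 0.799) and 0.12 (adjusted p = 0.838), and that of *AMH* was 0.30 without control replicate 3. Of 11 TGF-β and activin genes 3 were tested, with *TGFB1* at 0.08 (adjusted p = 0.869) and *TGFB2* at 0.64 (adjusted p = 0.462).

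Among receptors, none of the 4 tested type I, 4 tested type II and 3 tested co-receptor genes passed the test. *TGFBR2*, the type II receptor for TGF-β, stood out in value, with 33.02, 23.67 and 9.59 TPM in control and 52.93, 49.12 and 44.93 TPM in knockdown libraries 1, 2 and 3. The knockdown libraries were all above the controls, and control replicate 3 was the lowest. Its log2 fold change was 1.27 ± 0.39 (SE, adjusted p = 0.159), and it was 1.63 without control replicate 1 (adjusted p = 0.0391) and 0.78 without control replicate 3 (adjusted p = 0.114). *BMPR2*, the type II receptor for BMP, had −0.50 (adjusted p = 0.556), with 19.17, 13.08 and 5.8 TPM in control and 9.12, 9.02 and 5.77 TPM in knockdown libraries 1, 2 and 3, which overlapped. It was −0.15 without control replicate 1 and −0.93 without control replicate 3, and passed in neither fit. Of the type I receptors, *TGFBR1* had 0.44 (adjusted p = 0.368) and *ACVR1* 0.53 (adjusted p = 0.410). Of the co-receptors, *RGMB*, which binds BMP ligands, was higher in every knockdown library but did not pass (0.61, adjusted p = 0.161), and *ENG* had −0.04 (adjusted p = 0.928).

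The SMADs that carry the signal did not pass the test either, for 5 tested of 6. *SMAD3*, which acts downstream of TGF-β, was at 60.44, 65.79 and 67.03 TPM in control and 43.88, 52.41 and 40.35 TPM in knockdown libraries 1, 2 and 3. The groups did not overlap, and the log2 fold change was −0.50 ± 0.17 (SE, adjusted p = 0.191). *SMAD2* had 0.00 (adjusted p = 0.998). The BMP-type *SMAD1* and *SMAD5* and the common *SMAD4*, chosen after their values were seen, had −0.18 (adjusted p = 0.796), −0.12 (adjusted p = 0.852) and −0.32 (adjusted p = 0.574), and their groups overlapped.

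Of the genes that restrain or release ligands outside the cell, *THBS1* was called lower. *THBS1* encodes thrombospondin 1, which activates latent TGF-β, and it measured 183.76, 169.22 and 156.64 TPM in control and 79.85, 76.01 and 59.44 TPM in knockdown libraries 1, 2 and 3. The groups were far apart, and control replicate 3 was the lowest control library, unlike in the ID genes. The log2 fold change was −1.24 ± 0.17 (SE, adjusted p = 0.0252). It did not pass without control replicate 2 (adjusted p = 0.130), without knockdown replicates 1, 2 or 3 (adjusted p from 0.0865 to 0.138) or without a filter (adjusted p = 0.0708). In these fits calls over all tested genes fell from 146 to between 12 and 18. *THBS1* was 1 of 6 tested genes of latent TGF-β, beside *LTBP4* with −0.13 (adjusted p = 0.817). Of 8 tested extracellular and membrane inhibitors none passed, including *FSTL3*, an activin-binding protein, with −0.72 (adjusted p = 0.313), and *CHRDL1*, a BMP-binding protein, with −0.09 (adjusted p = 0.900). *BMPER*, another BMP-binding protein, chosen after its values were seen, had 12.28, 9.64 and 11.2 TPM in control and 21.72, 21.08 and 17.39 TPM in knockdown libraries 1, 2 and 3, and a log2 fold change of 0.81 (adjusted p = 0.0922). With arrayWeights *FSTL3* (−0.76, adjusted p = 0.0263) and *BMPER* (0.97, adjusted p = 0.00258) passed, and with the GC trend removed *BMPER* did (0.79, adjusted p = 0.0208). These fits called 3218 and 1242 genes over all tested, against 146 in the main fit, so many other genes gained a call there too. Inside the cell, none of 16 tested regulators passed, with *NEDD4L* at −0.08 (adjusted p = 0.854) and *SMURF2* at 0.10 (adjusted p = 0.838), both ubiquitin ligases that work with SMAD7.

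Among other target genes of the pathway, values lay on both sides of 0. None of 6 tested BMP target genes passed, and 4 of 6 were negative. *RUNX2* had 0.43 (adjusted p = 0.367), and *HES1* had −1.74 (adjusted p = 0.478), which was −0.17 without control replicate 3. *GATA2*, chosen after its values were seen, had −0.48 with no overlap between groups (adjusted p = 0.420). Of 14 tested TGF-β target genes 5 were negative, and *CDKN1A* was called higher. *CDKN1A*, the cell-cycle inhibitor p21 and also a p53 target, measured 73.92, 122.13 and 87.28 TPM in control and 232.09, 282.8 and 402.34 TPM in knockdown libraries 1, 2 and 3. Its log2 fold change was 1.68 ± 0.25 (SE, adjusted p = 0.0293), and of the fits that left out 1 library it passed only that without control replicate 1. Calls over all tested genes were 489 in that fit, 160 without control replicate 3, and 12 to 18 without any other library.

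The proteins that ID proteins bind were measured through 17 tested genes, of which none passed. Of the 3 E proteins, *TCF3* had −0.35 (adjusted p = 0.427) and *TCF12* −0.53 (adjusted p = 0.256), and their groups overlapped. *TCF12* passed with each library's trend with GC content removed (−0.55, adjusted p = 0.0267) and with arrayWeights, which weights libraries by their spread (−0.62, adjusted p = 0.0124). Over all tested genes, 1242 and 3218 were called in these fits, against 146 in the main fit. *TCF12*, the nearer to the members in size, measured 54, 50.67 and 36.53 TPM in control and 36.72, 32.1 and 27.61 TPM in knockdown libraries 1, 2 and 3. Of 18 tissue bHLH partners 15 had a mean under 1 TPM, while *TWIST1* had −0.40 (adjusted p = 0.586) and *TWIST2* 0.00 (adjusted p = 0.996). Of 11 tested other binding proteins, *PSMD4*, a proteasome subunit that binds ID1, had −0.42 without overlap (adjusted p = 0.321), and *ETS1* had 0.02 (adjusted p = 0.956).

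**Figure D4:**
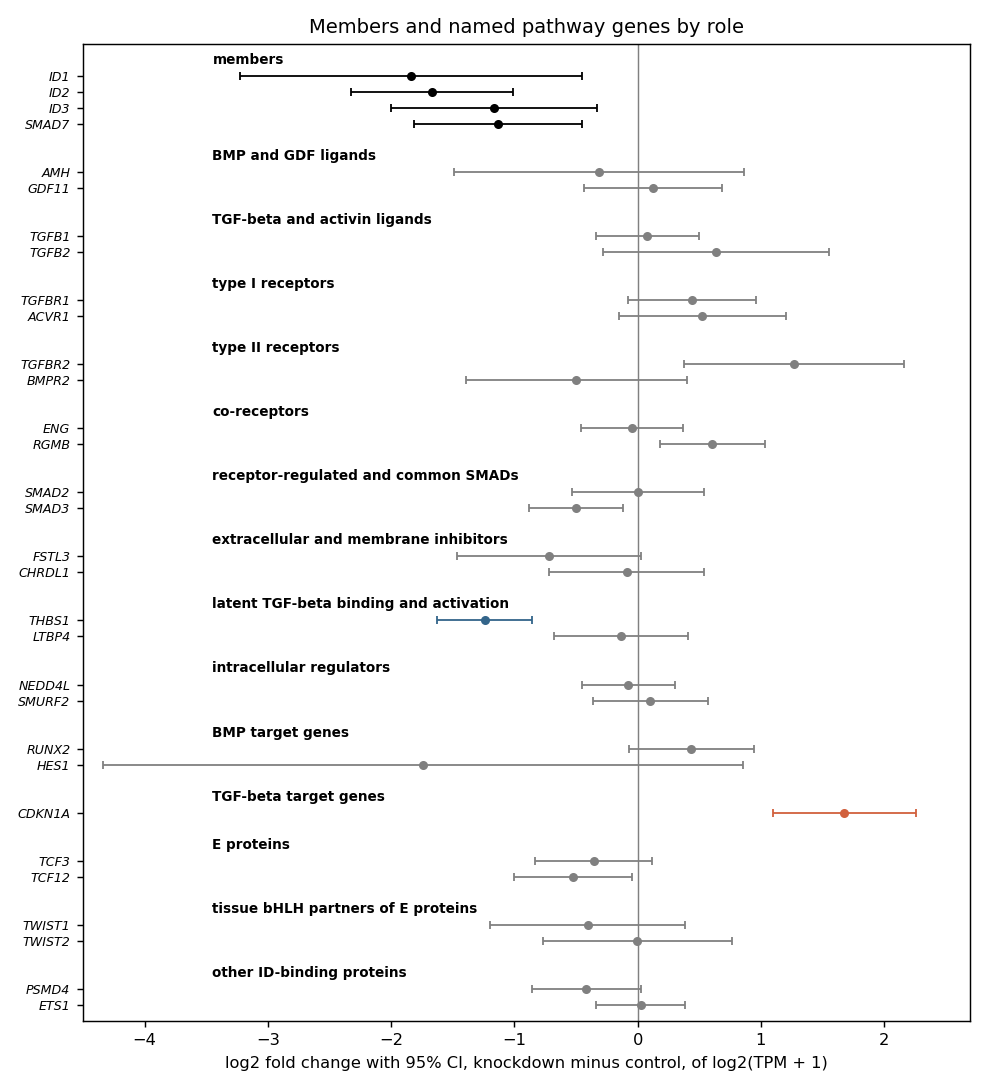
Log2 fold change, knockdown minus control, with the 95% interval from limma for the 4 tested members (black) and for the named genes of each pathway list, grouped by role. Grey marks genes that were not called, blue *THBS1* with −1.24 and orange *CDKN1A* with 1.68; *HES1* has the widest interval.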

How the data were processed

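Gene expression was measured by RNA–Seq of poly-A RNA in 6 SK–Hep1 libraries, grouped by their titles. The authors deposited a TPM value for each gene, with 2 decimals. Their methods name fastp, STAR and RSEM with GENCODE Release 45, whereas the submitters' processing notes name fastp, HISAT2 2.0.5 and hg38, and all 62700 gene identifiers were those of Release 44, used here for names and positions. Neither the depth nor the counting error can be had from TPM.

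Values were analysed as log2(TPM + 1) with limma 3.58.1 (lmFit, eBayes with trend, 2-sided) in R 4.3.3 for the 14020 genes whose mean reached 1 TPM. The threshold for a call was 0.05 after Benjamini–Hochberg adjustment over all of them. No values were imputed. The fit was tested on simulated data.

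The members and lists were chosen with earlier results of these data known. Named genes were the members, *RAB30-DT*, of each of 14 pathway lists the called genes and the 2 tested genes of highest mean TPM, and the 5 genes most correlated with *ID2*. Any other pathway gene is marked as chosen with its values in view. No rule set which cell type markers are named singly, and these were also picked with their values in view. For 2 listed genes, values are not reported here, though they remain in the counts. Alternatives were a pseudocount of 0.1 or 5, a filter at 5 TPM or none, median-of-ratios and quantile scaling, eBayes without trend or robust, arrayWeights, a replicate block, removal of each library's GC trend (loess, span 0.3), and each library left out. Sequences were read from hg38 with GENCODE transcripts, except that the windows of 250 bases were those of RefSeq promoters. For replicate numbers, the correlation of deviations from group means was computed between libraries of the same number only.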

Additional observations from a re-analysis of the deposited data

How the results depend on the processing

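Under 18 alternatives each, the log2 fold changes of *ID1*, *ID2*, *ID3* and *SMAD7* kept their sign, from −2.32 to −1.02, −1.86 to −1.33, −1.48 to −0.72 and −1.31 to −0.78, and they were called in 1, 10, 2 and 1 of the 18. Because *ID2* selected the group, these counts of calls are a description. The number of members called, 1, was 0 without a filter, with median-of-ratios scaling, with quantile normalization and with eBayes without trend, 4 with arrayWeights, and from 0 to 2 with each library left out. The 146 genes called over all tested were 13 without a filter, 3218 with arrayWeights, 1242 with the GC trend removed, and with a library left out ranged up from 12, lacking control replicate 2, to 489, lacking control replicate 1. They were 18, 15 and 16 without knockdown replicates 1, 2 and 3. The 2 pathway genes called were 0 without a filter, 1 with eBayes without trend, 21 with arrayWeights, 7 with the GC trend removed, and from 0 to 3 with a library left out. The causes were not tested.

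Libraries with the same number shared correlations of 0.410, 0.0359 and 0.279. Libraries with different numbers were not compared, so these values cannot decide whether the numbers pair the libraries. The main fit left them unpaired. With a replicate block 861 genes were called over all tested and 4 pathway genes, and with the block and the GC trend removed 1074 and 5. *ID2* was the 1 member called with the block. Pathway genes gained as calls were *BMPER* and *FSTL3* with the block (adjusted p = 0.0420 and 0.0347 from limma), *BMPER*, *FSTL3* and *TCF12* with the block and the GC trend removed (0.0400, 0.0391 and 0.0459), and *BMPER*, *RGMB*, *SMAD3*, *TCF12* and *TGFBR1* with the GC trend removed.

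Several pathway genes with small differences changed sign, none of them called. With the GC trend removed, with or without the block, *AMH* had 0.076, *ENG* 0.056, *SMAD2* −0.024, *LTBP4* 0.026 and *TWIST2* 0.068. With quantile normalization *ENG* had 0.098, *LTBP4* 0.012 and *NEDD4L* 0.12. With arrayWeights *GDF11* had −0.036 and *TGFB1* −0.039. *SMAD2* had −0.00019 with a pseudocount of 5, and *TWIST2* 0.012 with one of 0.1 and 0.019 with median-of-ratios scaling. With a library left out, *AMH* ranged from −0.84 to 0.30, *TGFB1* from −0.020 to 0.22, *ENG* from −0.15 to 0.067, *SMAD2* from −0.21 to 0.22, *CHRDL1* from −0.40 to 0.14, *LTBP4* from −0.38 to 0.0091, *NEDD4L* from −0.19 to 0.063, *TWIST2* from −0.31 to 0.26 and *ETS1* from −0.035 to 0.11. *RAB30-DT* was not called in any of the 18 alternatives, with −0.70 to −0.24.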
